A study of Mus musculus with 6 samples.

Results

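The Myc network is a set of basic helix-loop-helix leucine zipper transcription factors that pair with each other to bind DNA, and 10 of its genes were followed after knockdown of Ybx1, a reader of the RNA mark 5-methylcytosine. The members were chosen by gene symbol as Myc, Mycn, Mycl, Max, Mga, Mnt, Mlx, Mxd1, Mxd3 and Mxd4, and all 10 were among the 17920 genes listed. RNA-seq was performed on 3 libraries of a control group called WT and 3 of a group with Ybx1 knockdown, called KD, with every library labelled as mouse brain of the E13.5 stage (embryonic day). By the methods of the study, cells from the embryonic cortex were cultured, infected with shRNA lentivirus and exposed to puromycin, an antibiotic that kills uninfected cells, so both groups had been through culture and selection, although the series text speaks of a deletion. The shRNA design lowers a transcript and does not remove it, and the labels give no strain for the embryos.

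Myc, Mycn and Mycl proteins bind DNA as pairs with Max and activate genes of growth, ribosome production and the cell cycle. Mnt and the Mxd proteins compete for the same partner and recruit Sin3 corepressors with histone deacetylases to the same sequence, the E-box CACGTG. Mycn is known as the family member that drives expansion of neural progenitors, while most Mxd genes are known to be switched on as cells leave the cycle, with Mxd3 as the exception that is expressed in dividing cells.

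Ybx1 itself served as the check of the labels. Its normalised count, scaled to library size (CPM), was 628.8 ± 21.0 (SD, n = 3) in WT and 116.4 ± 36.8 in KD (log2 fold change -2.43, SE 0.178, edgeR adjusted p = 1.82e-04). Relative to the mean of WT, the transcript remaining in KD replicates 1 to 3 was 15.6%, 14.7% and 25.3%, most in replicate 3. Each library held between 16294635 and 16497505 estimated counts. Markers of radial glia (summed level 3068 to 3771 TPM, a level per transcript length, over the 6 libraries) and of neurons (4459 to 5221 TPM) were abundant, whereas the 7 listed genes of the microglia and blood list summed to at most 3.53 TPM and the 5 endothelial genes to at most 1.5 TPM. The 6 meningeal fibroblast genes summed to 24.45 to 46.69 TPM in WT and 28.21 to 39.95 TPM in KD, and of those tested 0 were called. Most of this sum was Pdgfra (means of 31.02 TPM in WT and 30.88 TPM in KD). Dcn was at 3.58 and 2.94 TPM, and the collagen gene Col1a1 at only 0.45 and 0.31 TPM. Levels of some markers differed between the groups. The 10 proliferation genes summed to 357.2 to 400.4 TPM in WT and 489.2 to 628.1 TPM in KD, with 7 higher in KD by the test and 0 lower, and Mki67, a marker of cycling cells, rose by 0.65 (log2, adjusted p = 0.00885). Over all genes tested, 24% were called, or 36.6% with the replicate number as a block in the fit. Of the 6 intermediate progenitor markers 5 could be tested and 3 rose, among them Eomes, the defining factor of these cells (11.17 ± 4.85 to 33.19 ± 11.5 CPM, adjusted p = 0.00813). With a block these were 5. Of 8 radial glia markers 2 rose (25%, near the share of all genes), among them Pax6 (log2 fold change 0.61, adjusted p = 0.0185), and of 8 neuronal markers 2 rose and 1 fell, while Tubb3, the neuronal tubulin, did not pass at -0.06 (adjusted p = 0.699). With a block, 4 radial glia markers rose, and 5 neuronal markers rose and 1 fell. Without WT replicate 2 the proliferation genes called higher numbered 4 and the radial glia markers 0. Over all genes, 779 were higher in that fit, against 1646 with all 6 libraries. In bulk RNA, more cells of a type and more RNA per cell cannot be told apart, and the part of these marker changes in the results for the network genes was not tested.

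RefSeq promoter windows (build GRCm38.p6, from 250 bases before to 50 bases after the start site, 300 bases in all) were found for 9 of the 10 members, all but Myc. The E-box CACGTG, which reads the same on both strands, occurred in 4 of these 9 windows (44.4%), against 2349 of all 32851 windows in the reference (7.15%). A match describes letters and is neither a binding site nor a cause. The sites in Max, Mlx and Mnt are shown with 10 bases on either side, because these genes encode the common partners and the ubiquitous repressor, with the E-box in capitals. They begin 3, 40 and 123 bases before the start site.
Max, minus strand, chr12:76962236-76962261: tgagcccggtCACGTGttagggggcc
Mlx, plus strand, chr11:101087240-101087265: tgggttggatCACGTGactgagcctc
Mnt, plus strand, chr11:74830791-74830816: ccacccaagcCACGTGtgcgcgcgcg

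The whole windows of Mycl, Mxd3 and Mxd4 are shown because these were the members called higher in KD. Only the window of Mxd4 holds the E-box among these, beginning 219 bases before the start site (capitals).
Mxd4, minus strand, chr5:34187661-34187960: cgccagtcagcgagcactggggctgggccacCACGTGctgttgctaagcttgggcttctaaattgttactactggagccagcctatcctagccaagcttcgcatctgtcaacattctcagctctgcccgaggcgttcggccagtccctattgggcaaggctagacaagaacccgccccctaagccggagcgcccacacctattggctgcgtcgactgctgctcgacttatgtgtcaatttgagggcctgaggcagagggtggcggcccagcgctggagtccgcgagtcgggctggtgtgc
Mxd3, minus strand, chr13:55329682-55329981: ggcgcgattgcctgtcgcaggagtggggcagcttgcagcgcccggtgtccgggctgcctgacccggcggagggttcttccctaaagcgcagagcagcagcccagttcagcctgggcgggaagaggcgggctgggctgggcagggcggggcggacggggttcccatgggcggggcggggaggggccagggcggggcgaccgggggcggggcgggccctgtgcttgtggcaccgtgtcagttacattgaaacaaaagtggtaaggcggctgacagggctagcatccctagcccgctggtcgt
Mycl, plus strand, chr4:122995681-122995980: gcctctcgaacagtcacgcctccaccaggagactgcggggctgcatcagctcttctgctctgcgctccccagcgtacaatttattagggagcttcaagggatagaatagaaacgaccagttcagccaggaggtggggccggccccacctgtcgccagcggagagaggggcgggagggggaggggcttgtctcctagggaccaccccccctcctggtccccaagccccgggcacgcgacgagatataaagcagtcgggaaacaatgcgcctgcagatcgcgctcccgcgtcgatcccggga
The window of Mycn, the most variable member between replicates, lacks the E-box. It holds the sequence TTTGGCGC, a form of the site bound by the E2F cell cycle factors, at 2 places that begin 183 and 168 bases before the start site (capitals). This motif was chosen after the window had been read, and on either strand it occurred in 169 of all 32851 windows (0.514%).
Mycn, minus strand, chr12:12941787-12942086: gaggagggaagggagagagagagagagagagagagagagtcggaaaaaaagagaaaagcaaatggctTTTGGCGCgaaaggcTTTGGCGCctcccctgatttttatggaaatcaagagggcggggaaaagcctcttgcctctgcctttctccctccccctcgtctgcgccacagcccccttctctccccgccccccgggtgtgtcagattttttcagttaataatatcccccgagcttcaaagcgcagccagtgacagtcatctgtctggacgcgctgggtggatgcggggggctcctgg

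Levels of different genes were compared on the TPM scale, which divides by transcript length. In WT, Max, the shared partner, had the highest level of the 10 members at 98.6 ± 1.09 TPM (SD, n = 3), above every other member in each library. Mycn followed at 66.68 ± 15.3 TPM and led the Myc family. Mycl (47.41 ± 6.41 TPM), Myc (46.04 ± 4.92 TPM), Mxd4 (44.32 ± 7.2 TPM) and Mlx (42.08 ± 1.47 TPM) came next. From Mycn to Mlx, neighbours in this order had overlapping ranges over the 3 libraries, although within each WT library Mycn was above Mycl. Mnt had 40.23 ± 1.03 TPM, just below the range of Mlx. The lower end was formed by Mga (19.08 ± 0.31 TPM), Mxd3 (12.06 ± 1.48 TPM) and Mxd1 (8.38 ± 0.566 TPM), whose ranges did not overlap. In KD, Max again came first (105.7 ± 2.26 TPM) and Mycn second (88.52 ± 18.4 TPM). Mxd4 stood in the third place at 67.82 ± 3.08 TPM, above Mycl (62.05 ± 2.2 TPM) and Myc (45.73 ± 2.95 TPM) in every KD library. The ranges of Mycn and Mxd4, of Mnt and Mlx and of Mxd3 and Mga overlapped with each other in KD.

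KD was then compared with WT. Of the 10 members, Mycl, Mxd3 and Mxd4 were higher in KD, 0 were lower and 7 did not pass the test (unpaired edgeR quasi-likelihood test, adjusted p under 0.05). Over all 13669 genes tested, 24% were called, with 12% higher and 11.9% lower, so 3 of 10 in either direction was near the background. DESeq2 and limma-voom, likewise unpaired, also called 3 members higher and 0 lower. At an unadjusted p under 0.05, 0 members were lower in any of the 3 tools. With the replicate number as a block in edgeR, Mycn was called as well, so 4 were higher and 0 lower, against 36.6% of all genes called. The CPM ranges of the groups did not overlap for these 3 members alone, against 41.6% of all genes tested. The median log2 fold change of the members was 0.12, compared with -0.0013 over all genes. All 10 passed the filter on low counts, the lowest estimated count being 86, for Mxd3.

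**Figure D1:**
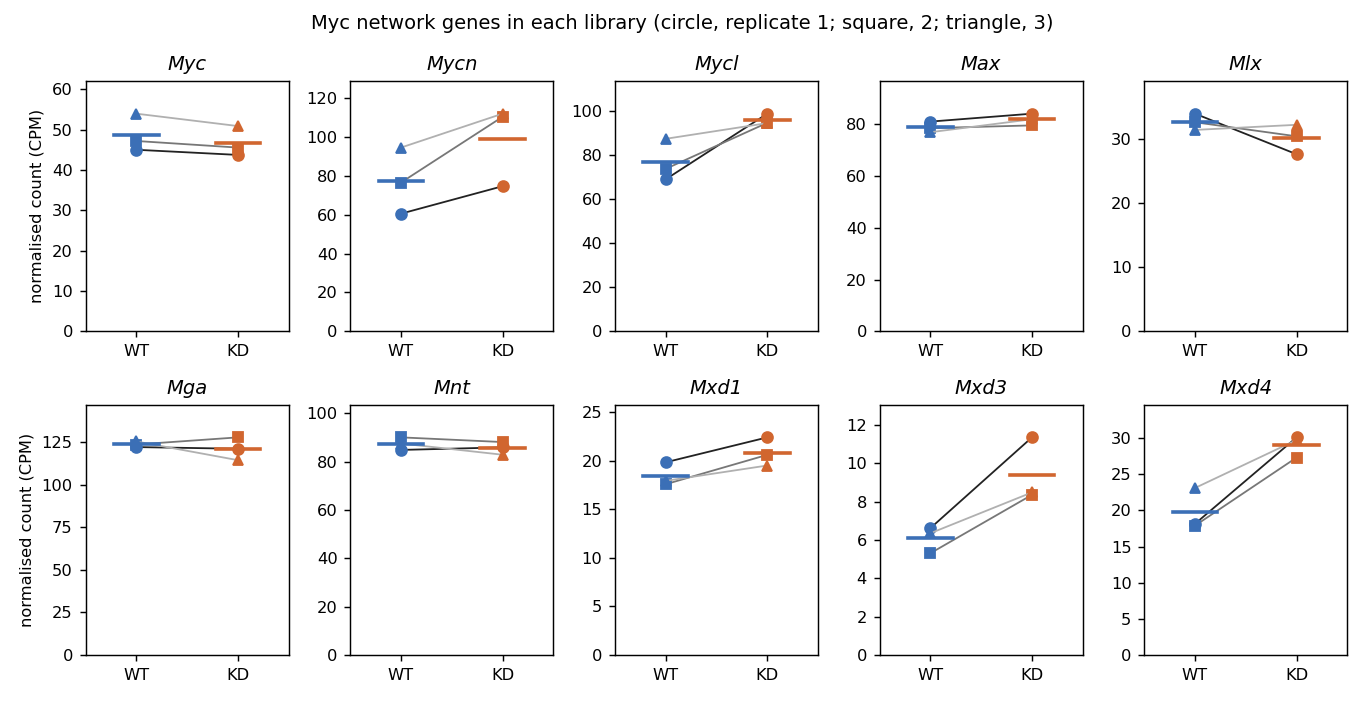
Normalised counts (CPM, linear axis from 0) of the 10 members in each WT (blue) and KD (orange) library, with grey lines joining libraries of the same replicate number and horizontal bars for group means. The KD libraries of Mycl, Mxd3 and Mxd4 all lie above the WT libraries, while those of Mycn, Max and Mxd1 overlap with WT although each line rises.

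Within the Myc family, Myc, the founding oncogene (chromosome 15, 61985341 to 61990361), was at 45.0, 47.2 and 54.0 CPM in WT replicates 1 to 3 and at 43.8, 45.6 and 50.9 CPM in KD. The groups overlapped, and each KD library lay slightly under the WT library of its number. The log2 fold change was -0.06 (SE 0.0843, 95% interval -0.25 to 0.13, adjusted p = 0.64).

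Mycn (chromosome 12, 12936093 to 12941836) was at 60.5, 76.5 and 94.5 CPM in WT and at 74.7, 110.4 and 112.0 CPM in KD. WT replicate 3 lay above KD replicate 1, so the groups overlapped, but every KD library exceeded its numbered WT partner, by 0.30, 0.53 and 0.24 on the log2 scale. The log2 fold change was 0.36 (SE 0.181, 95% interval -0.05 to 0.77, adjusted p = 0.181). With the replicate number as a block in the edgeR fit, the same log2 fold change of 0.36 passed the threshold (adjusted p = 3.65e-04), and the members called higher became 4, against 36.6% of all genes called in that fit. Max and Mxd1 were also higher in KD in every numbered pair, but did not pass in the block fit (adjusted p = 0.44 and 0.085). Without KD replicate 1 the unpaired fit also called Mycn (log2 fold change 0.53, adjusted p = 0.0447). The other libraries left out gave 0.21 (0.404) without WT replicate 1, 0.35 (0.321) without WT replicate 2, 0.53 (0.0659) without WT replicate 3, and 0.27 (0.406) and 0.26 (0.387) without KD replicates 2 and 3.

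Mycl, the family member first known from lung cancer (chromosome 4, 122995588 to 123002490), was at 68.8, 73.6 and 87.2 CPM in WT and at 98.6, 94.5 and 94.3 CPM in KD. The KD libraries were closely grouped and all lay above WT, with the smallest difference in replicate 3 (log2 0.52, 0.36 and 0.11 for replicates 1 to 3). Mycl rose 1.25-fold (log2 fold change 0.32, SE 0.0824, adjusted p = 0.0225). The call was lost without WT replicate 1 (adjusted p = 0.0562), WT replicate 2 (0.0872), KD replicate 1 (0.0601) or KD replicate 2 (0.0641), and over all alternatives the adjusted p ran from 0.00161 to 0.197.

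The summed Myc family level was 137.0, 154.4 and 189.0 TPM in WT and 174.9, 206.5 and 207.5 TPM in KD, with overlap between groups. Myc made up 31.0%, 28.5% and 27.3% of that sum in WT and 24.7%, 21.8% and 23.6% in KD, ranges that did not overlap. The share of Mycn (41.35% ± 2.95 against 44.75% ± 5.45) and that of Mycl (29.71% ± 1.1 against 31.88% ± 4.32) overlapped between groups. These shares are a description without a test.

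None of the partner and scaffold genes Max, Mlx and Mga passed the test. Max was at 81.1, 78.6 and 77.0 CPM in WT and at 84.2, 79.6 and 82.0 CPM in KD, with overlap (log2 fold change 0.05, SE 0.0498, 95% interval -0.06 to 0.17, adjusted p = 0.46). On the TPM scale its ranges were apart, from 97.55 to 99.73 TPM in WT and from 104.0 to 108.3 TPM in KD. That scale was itself shifted, with a median log2 fold change over all genes of 0.046 on log2(TPM + 1), against -0.0013 in the main fit. Mlx, which partners the glucose-sensing factors Mlxip and Mlxipl as well as some Mxd proteins, was at 34.0, 32.7 and 31.5 CPM in WT and at 27.7, 30.5 and 32.3 CPM in KD (log2 fold change -0.12, SE 0.0729, adjusted p = 0.266). The groups overlapped. Mga, a scaffold of a Polycomb complex that binds DNA with Max, was at 122.1, 123.6 and 125.4 CPM in WT and at 121.1, 127.8 and 114.4 CPM in KD (log2 fold change -0.03, SE 0.0529, adjusted p = 0.705). Its estimated counts were fractional in 4 libraries, as happens where reads are shared with other sequences, so its values are less certain.

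Among the repressors, Mnt, the widely expressed antagonist of Myc, was at 84.9, 90.1 and 87.5 CPM in WT and at 85.9, 88.1 and 82.9 CPM in KD (log2 fold change -0.03, SE 0.0506, adjusted p = 0.694). Its groups overlapped. Mxd1, the founding member of the Mxd family, was at 19.9, 17.6 and 17.9 CPM in WT and at 22.4, 20.6 and 19.5 CPM in KD. KD replicate 3 lay within the WT range, and the difference did not pass the test (log2 fold change 0.18, SE 0.0883, 95% interval -0.02 to 0.38, adjusted p = 0.18).

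Mxd3 (chromosome 13, 55325170 to 55329900) was at 6.62, 5.31 and 6.35 CPM in WT and at 11.4, 8.36 and 8.49 CPM in KD. All KD libraries lay above WT, with replicate 1 the highest. Mxd3 rose 1.54-fold (log2 fold change 0.63, SE 0.159, 95% interval 0.27 to 0.98, adjusted p = 0.0224), the largest fold among the members. It was counted from 86 to 189 estimated counts, and the call was lost without WT replicate 2 (adjusted p = 0.0865) or KD replicate 1 (0.0631). The range over all alternatives was 0.00166 to 0.143.

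Mxd4 (chromosome 5, 34176580 to 34187710), a Mxd gene known from differentiating tissues, was at 18.2, 17.9 and 23.1 CPM in WT and at 30.1, 27.3 and 29.8 CPM in KD. The groups did not overlap. Mxd4 rose 1.47-fold (log2 fold change 0.56, SE 0.105, 95% interval 0.32 to 0.80, adjusted p = 0.00669). The call held without any single library and was lost only when both libraries of replicate 2 were left out (adjusted p = 0.0883). Exons of 3 members overlap a gene on the opposite strand in the GENCODE vM21 annotation of the same assembly, namely Psmc3ip for Mlx (385 shared bases), Prelid1 for Mxd3 (105) and Gm42846 for Mxd4 (514). Whether counting used strand is not given in the sources used here, so reads from these stretches could not be told apart.

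For Mycl, Mxd3 and Mxd4 the difference between same-numbered libraries was smallest in replicate 3, at 0.11, 0.41 and 0.36 on the log2 scale, the replicate in which most Ybx1 transcript remained. WT replicate 3 was also the highest WT library for Mycl (87.2 CPM) and Mxd4 (23.1 CPM), which by itself makes those differences smaller. For Mxd3 the highest WT library was replicate 1 (6.62 CPM). Replicate 1 had the largest differences (0.52, 0.77 and 0.73). The difference of Mki67 was also largest there (0.79, against 0.60 and 0.50), while the Eomes difference was larger in replicate 2 (1.944) than in replicate 1 (1.497). Least Ybx1 transcript remained in replicate 2 (14.7%), where none of Mycl, Mxd3 and Mxd4 had its largest difference. For Mxi1, a related gene described below, the differences were 0.81, 0.64 and 0.74, smallest in replicate 2. With 3 pairs no relation was tested.

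**Figure D2:**
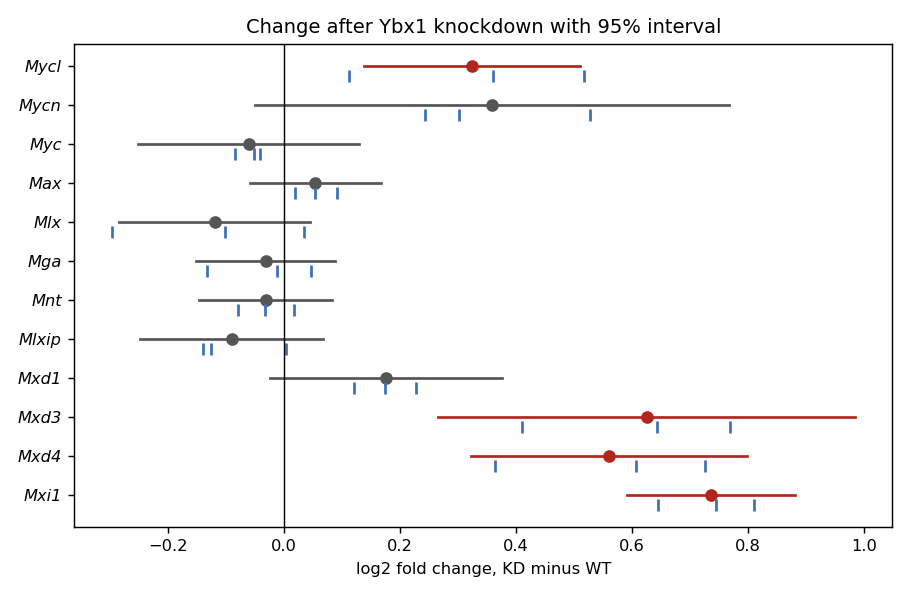
Log2 fold change of KD against WT (points) with its 95% interval (lines) for the members, Mlxip and Mxi1, red where the test was passed, and small blue ticks for the differences of the 3 same-numbered pairs. The intervals of Mycl, Mxd3, Mxd4 and Mxi1 lie right of 0. All 3 ticks of Mycn, of Max and of Mxd1 do as well, although their unpaired intervals include 0, that of Mycn reaching from -0.05 to 0.77.

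Of the 3 related genes outside the member list, Mxi1 (also known as Mxd2, chromosome 19, 53310128 to 53373293) rose. It was at 44.1, 42.9 and 44.2 CPM in WT and at 77.5, 67.1 and 74.1 CPM in KD, with a wide gap between groups. The rise was 1.67-fold (log2 fold change 0.74, SE 0.0642, adjusted p = 3.7e-04). Mlxip (log2 fold change -0.09, adjusted p = 0.383) and the sparse Mlxipl (0.21, adjusted p = 0.664) did not pass the test.

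The summed level of Mnt, Mxd1, Mxd3 and Mxd4 was 101.8, 98.8 and 114.4 TPM in WT and 146.1, 134.1 and 133.2 TPM in KD, without overlap. The small upward shift of all genes on the TPM scale, given with Max, is part of these sums. The ratio of the Myc family sum to this repressor sum was 1.52 ± 0.157 in WT and 1.43 ± 0.203 in KD, and these ranges overlapped, as both sums had higher means in KD. When Mxi1 took the place of Mnt among the repressors, the ratio was 1.54 ± 0.168 in WT and 1.21 ± 0.189 in KD. These ranges, from 1.351 to 1.659 and from 0.996 to 1.346, did not overlap, but the nearest libraries lay close. The exchange dropped Mnt, which did not pass the test, and added Mxi1, which had the largest rise of the network genes. A ratio to a sum with both Mnt and Mxi1 was not taken. The level of Mxd4 was 0.958, 0.901 and 1.02 times that of Myc in WT and 1.64, 1.43 and 1.4 times in KD. The choice of genes in a sum thus decided whether the groups were apart, and no test was made on these sums.

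**Figure D3:**
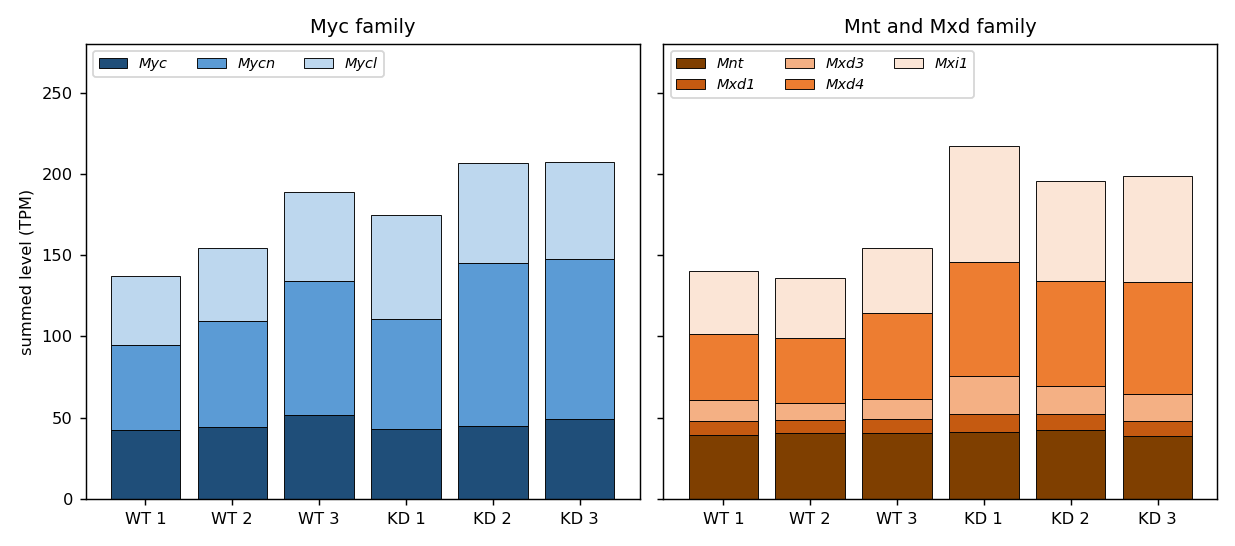
Stacked bars of TPM (linear axis from 0) for the Myc family on the left and for Mnt, the Mxd members and Mxi1 on the right, in each of the 6 libraries. Myc keeps a similar height in all bars, from 42.5 to 51.7 TPM, while the Mxd4 and Mxi1 segments are taller in each KD library than in any WT library.

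The genes that work with the network were described from lists. Of 16 Myc cofactors 3 rose and 0 fell (median log2 fold change 0.02). Actl6a, an actin-related subunit of chromatin remodelling complexes, rose by 0.53 (adjusted p = 0.00269), Smarcb1, a BAF subunit, by 0.23 (0.0164) and Cdk9, the elongation kinase, by 0.19 (0.0382). Trrap, the scaffold of histone acetyltransferase complexes, was at 251.9 ± 11.2 and 252.8 ± 11.5 CPM in WT and KD (adjusted p = 0.957), and Zbtb17, through which Myc represses genes, did not pass at 0.20 (adjusted p = 0.0925, and 0.0391 with a replicate block). The share of cofactors called was 18.8%, under the 24% of all genes, and with a block 5 rose and 1 fell, where 36.6% of all genes were called. Of 15 corepressor genes of the Mxd proteins 6 rose and 0 fell (40% called, median 0.15), and with a block 8 rose and 0 fell. Sap30, a subunit of the Sin3 complex, rose from 10.4 ± 0.839 to 16.29 ± 2.0 CPM (log2 fold change 0.65, adjusted p = 0.00623), and the deacetylase Hdac1 rose by 0.35 (0.0111), the histone chaperone Rbbp4 by 0.26 (0.00336, with fractional counts in 6 libraries) and the Sin3 partner Arid4b by 0.21 (0.0142, lost without WT replicate 2 at 0.0554 or KD replicate 2 at 0.0601). Sin3a itself, the scaffold that Mxd proteins bind, differed by 0.20 with overlapping groups (adjusted p = 0.155, and 0.0308 with a replicate block).

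Of the 9 genes of the Polycomb complex that Mga scaffolds, 2 rose and 2 fell, as they did with a block (44.4% called, against 24% of all genes, median -0.02). The heterochromatin protein gene Cbx3 rose by 0.35 (adjusted p = 0.00241) and the ubiquitin ligase Rnf2 by 0.31 (0.00501). The E2F partner Tfdp1 fell by 0.31 (0.00247) and the adaptor Rybp fell by 0.21 (0.0327), but Rybp did not pass without WT replicate 1 (adjusted p = 0.102), WT replicate 2 (0.0803), KD replicate 2 (0.0969) or KD replicate 3 (0.102), nor with total count scaling (0.0595) or on the TPM scales (0.113). Among 15 genes of Myc protein turnover 5 rose and 1 fell (40% called, median 0.13), and with a block 6 rose and 1 fell, where 36.6% of all genes were called. Usp28, a deubiquitinase that stabilises Myc, rose from 27.29 ± 0.762 to 42.14 ± 2.86 CPM (log2 fold change 0.63, adjusted p = 7.55e-04), Cip2a, which shields Myc from a phosphatase, rose by 0.44 (0.0195), and the nucleolar deubiquitinase Usp36 fell by 0.26 (0.0175). Fbxw7, the ubiquitin ligase subunit that marks Myc and Mycn for destruction, rose by 0.36 (0.0363, with fractional counts in 6 libraries), a call lost without WT replicate 1, WT replicate 2, KD replicate 2 or KD replicate 3 (adjusted p = 0.0637, 0.0687, 0.124 and 0.0835). Across these 4 lists, 16 of 54 genes rose and 3 fell, 35.2% called against 24% of all genes. Without WT replicate 2, or without KD replicate 2, 8 rose and 1 fell. Leaving out either of these libraries left 1 cofactor, 3 corepressor and 2 turnover genes higher, and without KD replicate 1 the cofactors also numbered 1. Over all genes, 779 rose and 797 fell without WT replicate 2, and 884 rose and 849 fell without KD replicate 2. Without KD replicate 1, 1098 rose and 1077 fell, against 1646 and 1631 with all libraries. Of the single libraries left out, Cdk9 kept its call only when this was WT replicate 3. Smarcb1, Cip2a and Usp36 each lost theirs when it was WT replicate 2 or either of KD replicates 1 and 2.

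Of 40 known Myc target genes 10 rose and 1 fell, so 27.5% were called, near the 24% of all genes, with a median log2 fold change of 0.11. The largest change was that of Cdca7, a Myc-responsive gene of DNA methylation maintenance, at 17.3, 13.39 and 14.95 CPM in WT and 36.4, 31.2 and 28.5 CPM in KD (log2 fold change 1.07, adjusted p = 8.28e-04). Its groups were far apart. Other targets that rose were the replicative helicase subunits Mcm5 (0.45, adjusted p = 0.0331) and Mcm4 (0.36, 0.0145), the kinase Cdk4 (0.35, 0.00292) and its cyclin Ccnd2 (0.35, 0.0211). Ptma, a chromatin protein abundant in dividing cells, rose by 0.40 (adjusted p = 0.00123), and the nucleolar proteins Npm1 and Ncl rose by 0.22 (0.0111) and 0.18 (0.0277). The classical targets Odc1, the first enzyme of polyamine synthesis (0.16, adjusted p = 0.063), and Cad, of pyrimidine synthesis (-0.07, adjusted p = 0.356), did not pass, though Odc1 did with a replicate block (adjusted p = 0.0132), without WT replicate 3 (0.0228), with total count scaling (0.0343) and on the TPM scales (0.0275 and 0.0271). The mitochondrial chaperonin Hspd1 fell by 0.31 (adjusted p = 0.00453). Without WT replicate 2 the targets called higher numbered 4, and Ccnd2 (adjusted p = 0.0745), Ncl (0.104), Mcm5 (0.115), Mcm4 (0.0527) and Npm1 (0.0562) were among those lost. All genes called higher in that fit numbered 779, against 1646 with all libraries. Ccnd2 was lost without WT replicate 1 (0.0505) or KD replicate 1 (0.0584) as well. Leaving out KD replicate 1 also cost Ncl (adjusted p = 0.0832) and Mcm5 (0.0568) their calls. Ncl likewise did not pass after KD replicate 2 was dropped (0.0984), or WT replicate 1 (0.0641). Mcm5 did not pass after WT replicate 3 was dropped (0.0718). The E-box stood in the promoter windows of 10 of 34 target genes with an entry (29.4%), against 8.09% of all genes with one. The list was made of known Myc targets, so this share does not bear on the knockdown.

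**Figure D4:**
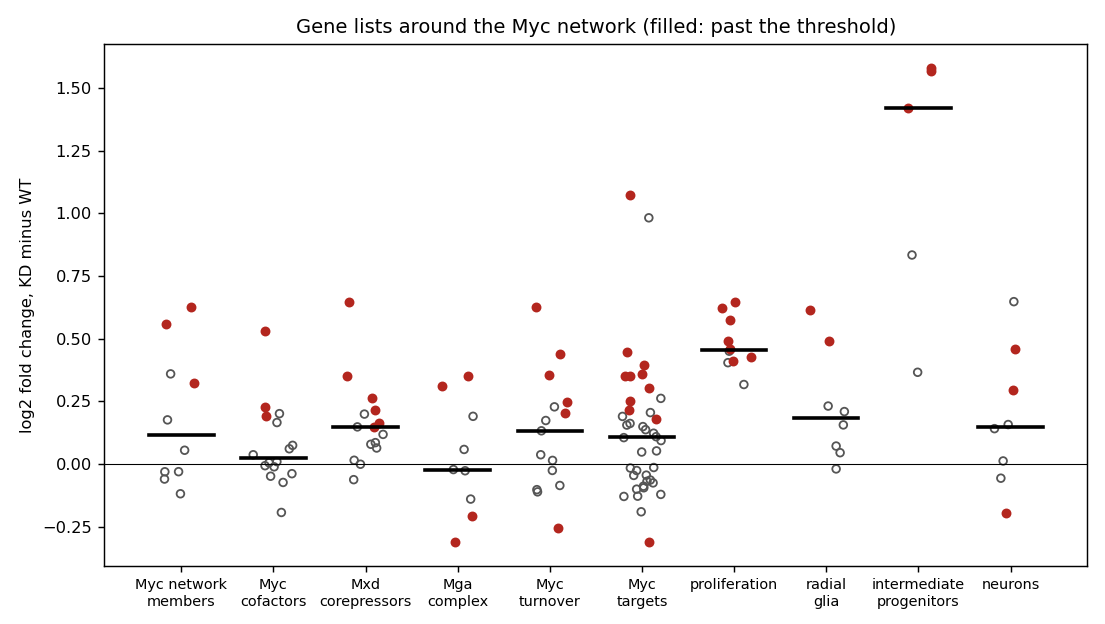
Log2 fold change of KD against WT for each tested gene of the lists (filled red, past the adjusted p threshold; open grey, not past it), with a black line at each list's median. The medians of the network members (0.12) and the Myc targets (0.11) lie close to 0, whereas those of the proliferation genes (0.45) and intermediate progenitor markers (1.42) lie higher.

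The genes whose pattern was most like that of 4 members were sought among 11439 genes by Pearson's r of log2 CPM over the 6 libraries, as a description. For Myc they were Nkain2 (r = 0.984) and Hk1 (0.984), for Mycn Igfbp3 (0.997) and Sec24d (0.997), for Max Taf13 (0.998) and Mettl3 (0.995) and for Mxd3 Mdm2 (0.997) and Srebf1 (0.997). The points share their group and replicate number, and these genes were picked as the highest of all those compared.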

How the data were processed

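RNA-seq of 3 WT and 3 KD libraries was taken from 1 deposited table, in which the WT columns are called Ctrl. Groups and replicate numbers came from the sample titles. The labels' processing notes name HISAT2 2.2.1, Bowtie2 2.4.5, RSEM 1.3.1 and the build GRCm38, without their roles. The authors purified mRNA and sequenced it on the DNBSEQ platform. The deposited estimated counts were 89.3% to 89.9% whole numbers per library (within 0.001). The deposited TPM values were used for levels. The 6 FPKM and 6 average columns were not used.

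Estimated counts, where whole counts had been assumed, were rounded and tested with edgeR 4.0.16 (R 4.3.3; TMM, filterByExpr with a minimum count of 10, unpaired quasi-likelihood test, Benjamini-Hochberg over 13669 genes, threshold 0.05). SE was obtained from the F statistic, as the size of the log2 fold change over its root, and 95% intervals use the fit's degrees of freedom. The script was tested on simulated data. DESeq2 1.42.0, limma 3.58.1 and other settings were alternatives. Deviations from group means correlated between same-numbered libraries at 0.35, 0.32 and 0.18, and at -0.28 to -0.018 otherwise, so the numbers of the titles, which the series text ties to 3 sequencing batches, were taken to pair the libraries. The study names independent replicate experiments. The main fit did not use the pairing by number, and the edgeR fit with a block, which did, was an alternative. With the block the adjusted p was 0.00161 for Mycl, 0.00166 for Mxd3 and 9.62e-05 for Mxd4.

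The members and lists were chosen with earlier results of these data known. Named genes were the members, Mxi1, Mlxip, Mlxipl, Ybx1, 14 genes by name and, per list, up to 4 called genes of largest change among those averaging 5 CPM or more whose groups were apart. Hspd1 was named after its value was seen, as the only target that fell.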

Additional observations from a re-analysis of the deposited data

How the results depend on the processing

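Of 19 alternatives, Mxd4 lost its call only with both libraries of replicate 2 left out. With the replicate number as a block, 2539 genes were higher and 2470 lower (1646 and 1631 without it), 2 Myc targets were lower, and among the members only the call of Mycn changed. With both libraries of replicate 2 left out, 135 genes were higher and 93 lower, the members called higher were 0, the targets 2 higher and 0 lower, and the cofactor, corepressor, Mga complex and turnover genes 1 higher and 0 lower, with fewer libraries in the fit. At an adjusted p threshold of 0.01, these were 629 and 634 genes, 1 member (Mxd4), 4 targets higher, and 7 and 1 of the associated genes. An added 1.2-fold requirement left 8 and 1 of those. On log2(TPM + 1) and log2(TPM + 0.1), 1072 and 1063 genes were lower and 1 associated gene was, and 65.9% and 66.1% of all calls were higher, against 50.2% in edgeR with TMM, 43% with upper quartile scaling and 57.9% with total counts. Leaving out 1 library gave 779 to 1612 genes higher, 797 to 1583 lower, 1 to 3 members higher, 4 to 11 targets higher, and 8 to 19 associated genes higher and 1 to 3 lower. Signs turned only for genes not called: Mnt at 0.019 and 0.0194 on the TPM scales, Trrap at -0.016 with upper quartile scaling and -0.047 without replicate 2, and, with 1 library left out, Myc (-0.124 to 0.0199), Mga (-0.071 to 0.0101), Mlxipl (-0.0362 to 0.48), Trrap (-0.024 to 0.044) and Tubb3 (-0.14 to 0.025). The cause of these shifts was not tested. The 3 libraries a group and the 86 to 189 counts of Mxd3 limit the precision, and intervals cover the spread between these libraries only.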
